A study of Mus musculus with 6 samples.

Results

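The genes mir-138-1, mir-138-2, mir-219a-1 and mir-219a-2 are the mouse gene copies of 2 neural microRNAs (miRNAs), miR-138 and miR-219a. They were taken by name from a table of 898 miRNA genes, so the set held 4 of 898 genes. They were chosen by the ratio of their mean levels in 2 groups of cells, so that difference is described here and not tested. To follow miRNAs through the change from pluripotency to a neuronal fate, small-RNA libraries were made from mouse E14Tg2a embryonic stem cells, an established feeder-independent line, at passages 37-40. The first group, ESC, was grown with leukemia inhibitory factor (LIF), a cytokine that keeps these cells pluripotent. The second group, neuronal cells (NC), was the same line kept without LIF and given 1 µM retinoic acid (RA) for 48 hours. Each group had 3 replicates, each from 2 plates of cells of a single line, so the spread between libraries is that between cultures of this line.

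A miRNA gene is transcribed as a long precursor, from which a hairpin is cut and then trimmed to a mature strand from its 5′ arm (5p) or its 3′ arm (3p). The mature strand guides a silencing complex to messenger RNAs that pair with its seed, bases 2 to 8. miR-138 is a brain-enriched miRNA known for its control of dendritic spine size, and miR-219a is known for its role in the differentiation of oligodendrocytes, the myelin-forming cells of the brain and spinal cord.

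The mature sequences show what the copies have in common, and they are given with the seed in capitals. They are those of NCBI RefSeq on mouse build GRCm38.p6.
miR-138-5p, from mir-138-1 and mir-138-2: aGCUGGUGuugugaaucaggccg
miR-138-1-3p, from mir-138-1: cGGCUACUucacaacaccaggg
miR-138-2-3p, from mir-138-2: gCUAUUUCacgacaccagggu
miR-219a-5p, from mir-219a-1 and mir-219a-2: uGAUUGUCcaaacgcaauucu
miR-219a-1-3p, from mir-219a-1: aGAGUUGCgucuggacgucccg
The entry miR-219a-2-3p is named only.

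Both copies of miR-138 encoded the same 5p strand of 23 bases, and both copies of miR-219a the same 5p strand of 21 bases. The 3p strands of the mir-138 copies were 78.3% identical when aligned, with 9 bases as their longest shared run and different seeds. None of these 5 seeds occurred in any other of the 1679 mature miRNAs of the sequence table. The 5p strands of miR-138 and miR-219a shared no run longer than 4 bases.

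The hairpins from the same RefSeq table show how far the copies differ outside the 5p strand, which is in capitals.
mir-138-1: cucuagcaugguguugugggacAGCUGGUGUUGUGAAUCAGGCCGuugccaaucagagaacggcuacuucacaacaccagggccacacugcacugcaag
mir-138-2: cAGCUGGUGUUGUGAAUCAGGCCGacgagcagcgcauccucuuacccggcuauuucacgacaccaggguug
mir-219a-1: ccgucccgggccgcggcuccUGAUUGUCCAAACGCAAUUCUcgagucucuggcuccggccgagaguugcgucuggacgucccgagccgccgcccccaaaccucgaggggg
mir-219a-2: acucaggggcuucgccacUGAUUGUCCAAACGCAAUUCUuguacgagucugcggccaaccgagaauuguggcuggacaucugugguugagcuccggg

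The aligned mir-138 hairpins matched at 49.5% of positions and the aligned mir-219a hairpins at 63.2%. The longest shared runs, 24 and 22 bases, were 1 base longer than the 5p strands. A read of the 5p strand therefore could not be placed at 1 copy by its own sequence, whereas a read of the 3p strand could be placed at mir-138-1 or mir-138-2. The counting rule for such reads is not given in the sources used here, and the table holds 1 value per gene without a division into arms.

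The copies lie on 4 chromosomes of mouse build GRCm38, the assembly that is also called mm10. mir-138-1 (Mir138-1) lies at chr9:122682876-122682974 on the plus strand, in an exon of the transcribed pseudogene Gm47135. The nearest protein-coding gene after it was Topaz1, 64372 bases away. mir-138-2 (Mir138-2) lies at chr8:94324311-94324381 on the plus strand, in an exon of the long non-coding RNA gene C78859. Its protein-coding neighbours were Nup93, 7084 bases before it, and Slc12a3, 4820 bases after it.

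mir-219a-1 (Mir219a-1) lies at chr17:34024983-34025092 on the minus strand, where it overlaps an exon of the long non-coding RNA gene Gm26940. It was 303 bases from Ring1, which encodes a Polycomb protein, 941 bases from H2-Ke6, and 6720 bases from Rxrb, which encodes a retinoid X receptor. mir-219a-2 (Mir219a-2) lies at chr2:29845631-29845727 on the minus strand, outside protein-coding genes, 629 bases from Urm1 and 23437 bases from Cercam. The plus strand of the mir-219a hairpins is annotated as other miRNA genes, Mir219c opposite mir-219a-1 and Mir219b opposite mir-219a-2, and the sequence of each is a reverse complement of part of the hairpin.

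The deposited values were means over the 3 libraries of a group, in normalised counts, which are reads divided by a size factor that sets libraries of different depth on 1 scale. Reads of single libraries were recovered from these means for 521 of the 549 miRNAs above 0 in ESC and 578 of the 602 above 0 in NC, all 4 genes included. Within each group, A denotes the library with the largest size factor, B the next and C the smallest, with factors of 1.62, 0.937 and 0.547 in ESC and 2.31, 0.977 and 0.585 in NC. The resolved reads, which leave out the most abundant miRNAs, ranged from 59737 to 305142 per library. Library C stood apart in both groups. Its log2 difference from the mean of A and B had an SD of 1.30 in ESC and 1.18 in NC over 302 miRNAs, against 0.40 and 0.29 between A and B, and what sets library C apart was not tested. The 12 listed miRNAs of the pluripotent ESC clusters had a summed level of 137809 in ESC and 31426 in NC, with none higher in NC, and the 5 listed miRNAs of muscle were at 0 in both groups. The summed levels in ESC and NC were 926 and 359 for 2 miRNAs of blood, 2563 and 3086 for 1 of endothelium, and 2226 and 1840 for 5 of liver and gut.

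mir-138-1 was higher in NC than in ESC. The ESC libraries A, B and C held 98, 62 and 48 reads, or 60.4, 66.1 and 87.7 normalised counts. The NC libraries held 841, 374 and 274 reads, or 364.6, 382.9 and 468.5 normalised counts. The groups did not overlap, and library C was the highest in each. The mean was 71.4 ± 14.4 in ESC and 405 ± 55.5 in NC (SD, n = 3), a ratio of 5.68, or 2.49 on the log2 scale with a pseudocount of 1.

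mir-138-2 gave nearly the same values. Its ESC libraries held 94, 65 and 45 reads, or 57.9, 69.3 and 82.2 normalised counts. Its NC libraries held 837, 360 and 268 reads, or 362.8, 368.6 and 458.3 normalised counts. Again the groups did not overlap. The mean was 69.8 ± 12.1 in ESC and 397 ± 53.5 in NC (SD, n = 3), which was also a ratio of 5.68 and a log2 ratio of 2.49.

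mir-219a-1 was a low miRNA in both groups, and its groups overlapped. The ESC libraries held 16, 19 and 1 reads, or 9.86, 20.3 and 1.83 normalised counts. The NC libraries held 60, 27 and 6 reads, or 26.0, 27.6 and 10.3 normalised counts. Library C was the lowest in each group, and ESC library B lay above NC library C. The mean was 10.7 ± 9.25 in ESC and 21.3 ± 9.60 in NC (SD, n = 3), a ratio of 2.00, and the difference of 10.7 was little larger than the SD of either group. The summed reads, 36 in ESC and 93 in NC, gave a ratio of 2.07 after correction for the size factors, with an exact 95% interval of 1.40 to 3.14 that covers counting error only.

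mir-219a-2 was almost without reads in ESC and had reads in every NC library. The ESC libraries held 1, 1 and 0 reads, and a count of 0 allows up to 3 reads. The NC libraries held 636, 298 and 36 reads, or 275.7, 305.1 and 61.6 normalised counts. The lowest NC library, C, lay far above the highest ESC library, which was at 1.07 normalised counts. The mean was 0.56 ± 0.54 in ESC and 214 ± 133 in NC (SD, n = 3). The ESC mean was under the 3.51 normalised counts that 3 reads in each library would give, and the NC mean was 61.0-fold that floor. This floor covers the ESC side alone and takes the NC mean of 214 as it stands. NC library C held 0.212 times the mean of NC libraries A and B for this gene, while for mir-138-1 it held 1.25 times that mean.

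**Figure D1:**
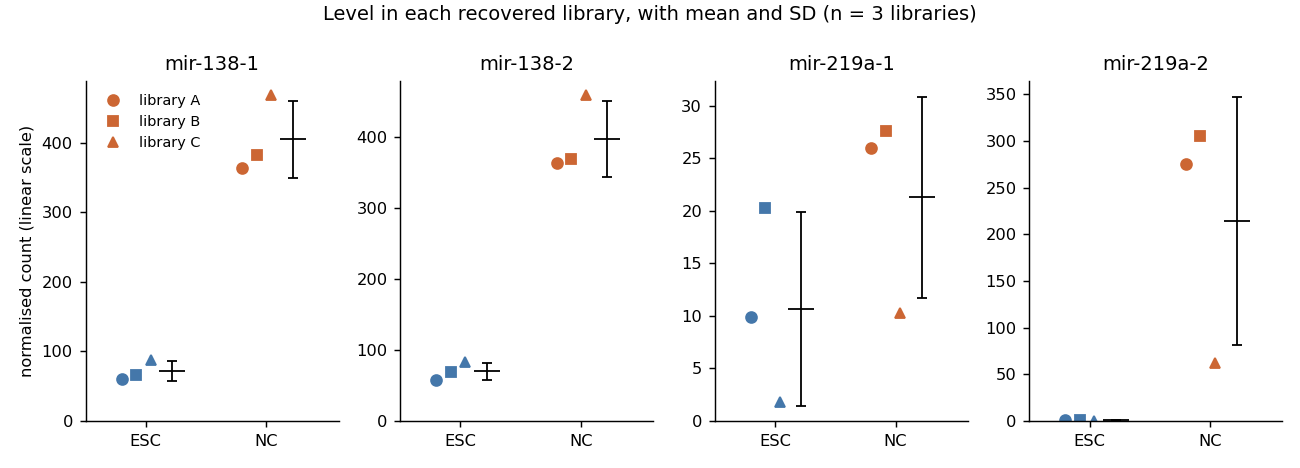
Normalised count of each gene (vertical axes, linear, with a scale of their own) in the ESC (blue) and NC (orange) libraries A, B and C, with the mean and SD of 3 libraries in black. The groups do not overlap for mir-138-1, mir-138-2 and mir-219a-2, while for mir-219a-1 ESC library B at 20.3 lies above NC library C at 10.3.

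Every NC library lay above every ESC library for 3 of the 4 genes, and the same held for 53 (17.5%) of the 302 recovered miRNAs whose mean was 10 or more. With a pseudocount of 1, the NC mean was at least 2-fold the ESC mean for the same 3 genes, and for 76 (12%) of the 634 miRNAs detected in either group. These counts follow from how the genes were chosen. In library A alone, the ratio of NC to ESC was 6.03 for mir-138-1, 6.26 for mir-138-2 and 2.64 for mir-219a-1. In library B it was 5.79, 5.32 and 1.36, and in library C 5.34, 5.57 and 5.62. Among these 3 genes the ratio of mir-219a-1 varied most with the library, but in library C it rests on 6 NC reads and 1 ESC read. The ESC reads of mir-219a-2, at most 1 in a library, give no such ratio. Without library C of both groups the ratio was 5.91 for mir-138-1, 5.75 for mir-138-2 and 1.78 for mir-219a-1. The libraries carry no replicate number, so a library of one group and that of the same letter in the other are matched by depth alone.

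The order of the levels differed between the groups. Reads were not divided by length, and the order is that of normalised counts. In ESC, mir-138-1 was at rank 186 and mir-138-2 at rank 190 of the 549 miRNAs above 0, followed by mir-219a-1 at rank 316 and mir-219a-2 at rank 485. In NC, mir-138-1 and mir-138-2 were at ranks 98 and 100 of 602, mir-219a-2 at rank 116 and mir-219a-1 at rank 278. The mir-138 copies did not differ beyond their SD in either group. In NC the level of mir-219a-2 lay below that of both mir-138 copies in every library. Measured as a share of all normalised counts, mir-138-1 made up 0.00619% in ESC and 0.0253% in NC, and mir-219a-2 made up 4.87e-05% and 0.0134%. In a bulk culture, a higher level in each cell and a larger number of cells with the miRNA cannot be told apart.

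**Figure D2:**
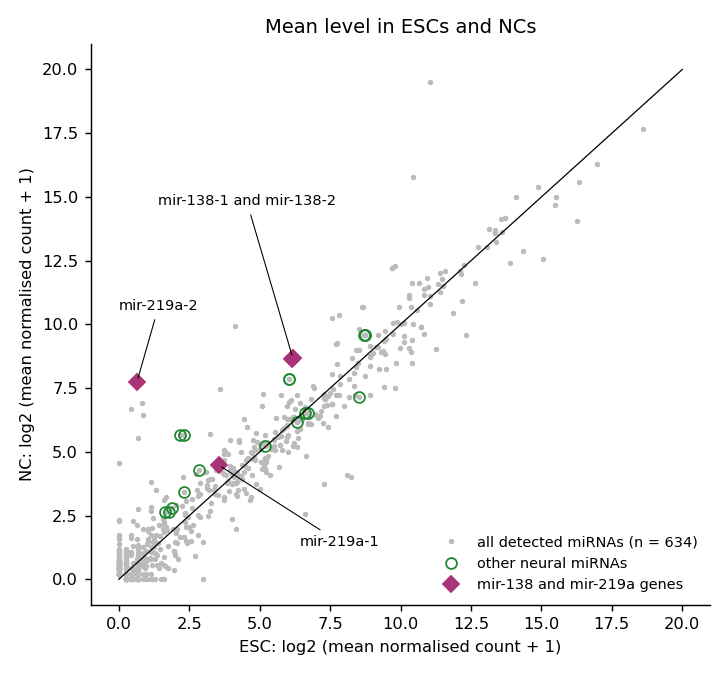
Mean level of all 634 detected miRNAs in ESC (horizontal axis) and NC (vertical axis), both as log2 of the mean normalised count plus 1, with the line of equal levels. The genes of mir-138 and mir-219a are diamonds and the other neural miRNAs are open circles; mir-219a-2 stands at the left edge with an ESC mean of 0.56 and an NC mean of 214, and mir-219a-1 lies near the line.

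To ask which locus supplied the higher level in NC, the copies were compared within each library, where depth and preparation are the same for both. The mir-138 copies had nearly equal counts in every library. mir-138-1 held 51.0%, 48.8% and 51.6% of the reads of both copies in ESC libraries A, B and C, and 50.1%, 51.0% and 50.6% in the NC libraries. Exact 95% binomial intervals, which in NC library A ran from 47.7% to 52.5%, treat each read as entered at 1 copy alone, and if shared reads were entered at both copies the share would be near 50% whatever the source. The counts differed by between 0.476% and 6.25% of the larger count, and mir-138-1 was the higher in 5 of 6 libraries. Over all libraries it had 1697 reads and mir-138-2 had 1669.

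Of the summed difference between NC and ESC for the mir-138 copies, 50.5% stood at mir-138-1 (333.9 normalised counts) and the rest at mir-138-2 (326.7). How far reads of the identical 5p strand, entered at both copies, make up these counts was not tested. Whether mir-138-1 on chromosome 9, mir-138-2 on chromosome 8 or both supplied miR-138 in NC cannot be told apart from these values.

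The mir-219a copies differed in opposite directions in the 2 groups, although ESC library C, with 1 read of both copies, shows no difference by itself. In ESC, mir-219a-2 held 1 of 17 reads in library A, 1 of 20 in library B and 0 of 1 in library C. Over all ESC libraries it held 2 of 38 reads, or 5.26% (exact 95% binomial interval 0.64% to 17.7%). In NC it held 91.4% of 696 reads in library A (exact 95% binomial interval 89.0% to 93.4%). The share was 91.7% of 325 reads in library B (88.1% to 94.5%) and 85.7% of 42 reads in library C (71.5% to 94.6%). The share in library C rests on 42 reads and has the widest interval of the NC libraries. These intervals too treat each read as entered at 1 copy and cover counting error only. mir-219a-2 exceeded mir-219a-1 by 576, 271 and 30 reads in the NC libraries, and these reads were entered at mir-219a-2 and not at mir-219a-1.

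In the group means, mir-219a-1 stood 19.0-fold above mir-219a-2 in ESC, with only 2 reads of mir-219a-2 behind that ratio, and mir-219a-2 stood 10.1-fold above mir-219a-1 in NC. The difference between NC and ESC was 213.6 normalised counts for mir-219a-2 and 10.7 for mir-219a-1. Thus 95.2% of the summed difference of the mir-219a copies stood at mir-219a-2 on chromosome 2, and 4.75% at mir-219a-1 on chromosome 17. Summed over both copies, the level was 10.5, 21.3 and 1.83 in ESC libraries A, B and C and 301.7, 332.8 and 71.8 in the NC libraries. The summed mean was 11.2 in ESC and 235 in NC, a ratio of 21.0. If reads of the shared strand were entered at both copies, these sums hold such reads more than once. Because the 5p strand is shared, how many of these reads were miR-219a-5p from either locus cannot be told from the table.

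**Figure D3:**
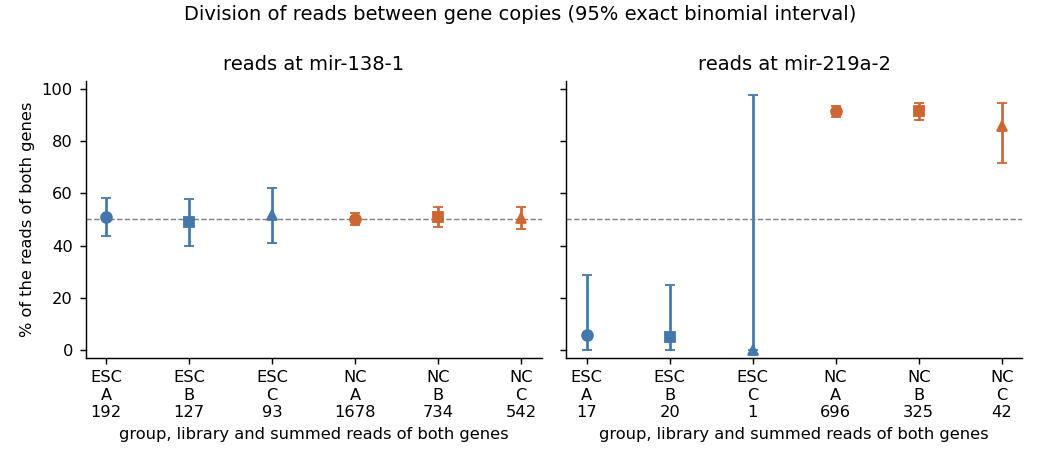
Share of the reads of both gene copies (vertical axis, %) entered at mir-138-1 (left) and at mir-219a-2 (right) in each library, with exact 95% binomial intervals for reads entered at 1 copy alone and the summed reads of both copies under each library. The mir-138 shares lie at 48.8% to 51.6%, on the dashed line at 50%, while mir-219a-2 lies at 0% to 5.88% in ESC and at 85.7% to 91.7% in NC.

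The genes opposite the mir-219a copies had almost no reads. mir-219b, opposite mir-219a-2, held 2, 0 and 0 reads in ESC libraries A, B and C and 0, 1 and 0 reads in NC. mir-219c, opposite mir-219a-1, held 0, 0 and 1 reads in ESC and 2, 1 and 1 reads in NC. Both were under the mean that 3 reads in each library would give in both groups, so no ratio is given. Beside the 970 NC reads of mir-219a-2, 1 read was entered at the gene on the opposite strand.

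The copies were set beside other genes that encode an identical mature strand. RefSeq mature sequences were matched to 745 of the 898 genes. Among the sets in which at least 1 gene had a mean of 10 or more, the highest and the lowest gene were within 1.25-fold of each other in 16 of 23 sets in ESC and in 15 of 26 in NC. mir-138-1 and mir-138-2, at 1.02-fold in both groups, were among these, as were the copies of mir-9, mir-218 and mir-135a in NC. The mir-219a copies were not, and their ratio was the 2nd highest of the sets in ESC and the 3rd highest in NC. In NC only the copies of mir-24 and of mir-365 were further apart, at 64.3-fold and 22.3-fold. These ranks leave out mir-128, of which 1 copy was listed at 0. Some of the ratios rest on means under those that 3 reads in each library would give, 3.51 in ESC and 3.17 in NC. Under them were mir-219a-2 in ESC at 0.56, and in NC the lower copies of mir-24 at 1.75 and of mir-365 at 0.49. The ESC ratio of mir-219a and the NC ratios of mir-24 and mir-365, and the ranks they give, are therefore uncertain.

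**Figure D4:**
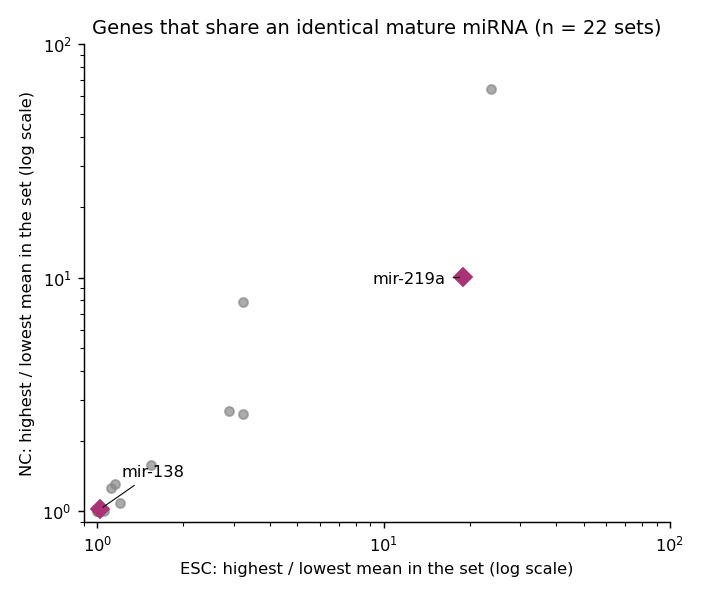
Ratio of the highest to the lowest mean among genes that encode an identical mature miRNA, in ESC (horizontal axis) and NC (vertical axis), both on log scales, for the 22 sets with a ratio in both groups. Most sets crowd near 1, with mir-138 at 1.02 in both groups, and mir-219a lies at 19.0 in ESC and 10.1 in NC. The ESC ratio of mir-219a rests on 2 reads of mir-219a-2.

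Other neural miRNAs were taken from a list of genes known from the nervous system, of which 20 are in the table. The list names mir-9, mir-124, mir-128, mir-129, mir-132, mir-212, mir-135, mir-137, mir-153, mir-218 and mir-338. mir-128-2, mir-137 and mir-153 were at 0 in both groups, and 13 of the 20 had at least 10 reads in 3 or more libraries and were tested. In limma-voom with Benjamini-Hochberg adjustment, 2 of these 13 passed an adjusted p of 0.05, both higher in NC, against 31 (10%) higher and 18 (5.81%) lower of all 310 miRNAs tested. The 310 include the 4 genes of mir-138 and mir-219a, whose own results in the fit are not given. Those genes were chosen on this contrast, so the count of miRNAs higher in NC is not free of that choice. The median log2 fold change was 0.91 over the 13 and -0.06 over all tested. Among the 13, mir-135a-1, mir-135a-2 and mir-338 reached the filter only through the NC libraries, where they were higher, which can raise that median. The 13 include copies with nearly the same counts, and the median was the value of mir-9-3, 1 of the 3 copies of mir-9. With upper-quartile factors, which moved the median over all tested to 0.28, 32 miRNAs were higher and 9 lower, and 3 of the 13 passed.

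The genes that passed were the copies of miR-135a, which encode an identical mature strand and are 1 miRNA entered at 2 genes. Both reached the filter of 10 reads only through the NC libraries, the group in which they were higher. mir-135a-1 held 2.47, 4.27 and 3.65 normalised counts in ESC libraries A, B and C and 69.8, 59.4 and 20.5 in NC, and rose by 3.76 ± 0.77 on the log2 scale (SE, limma-voom adjusted p = 0.0182). mir-135a-2 held 3.08, 5.33 and 3.65 in ESC and 71.5, 60.4 and 18.8 in NC, and rose by 3.56 ± 0.79 (SE, limma-voom adjusted p = 0.0260). Both groups were apart for each copy, and NC library C was again the lowest of the NC libraries. These calls depended on single libraries. Without ESC library A, ESC library B or NC library B in turn, the limma-voom adjusted p was 0.139, 0.0944 and 0.0571 for mir-135a-1 and 0.161, 0.106 and 0.0694 for mir-135a-2, and without NC library A it was 0.0513 for mir-135a-2.

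Of the listed genes that did not pass, the copies of mir-9, a regulator of neural progenitors, had log2 fold changes between 0.90 and 0.92, and the limma-voom adjusted p of mir-9-1 was 0.0802. mir-218-1, known from motor neurons, had a log2 fold change of 1.65 (limma-voom adjusted p = 0.129), and mir-338, which like miR-219a is known from oligodendrocytes, had 1.73 (limma-voom adjusted p = 0.0983). With 5, 6 and 5 reads in the ESC libraries, mir-338 too reached the filter only through the NC libraries. mir-218-2 had a log2 fold change of 1.77 and mir-212 of 0.48. The others tested were lower in NC. mir-135b had -1.12 (limma-voom adjusted p = 0.398), mir-129-1 -0.22, mir-129-2 -0.15 and mir-128-1 -0.05. A further limma-voom fit took the library set A, B or C as a covariate, with the sets matched between groups by depth alone. In it 9 of the 13 passed, 8 of them higher and mir-135b lower in NC. The shares of all miRNAs tested were then 21.6% higher and 19.7% lower. The copies of mir-124, the most neuron-specific of the listed miRNAs, had means of 2.09 to 2.70 normalised counts in ESC and 5.19 to 6.02 in NC, and did not reach the filter.

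**Figure D5:**
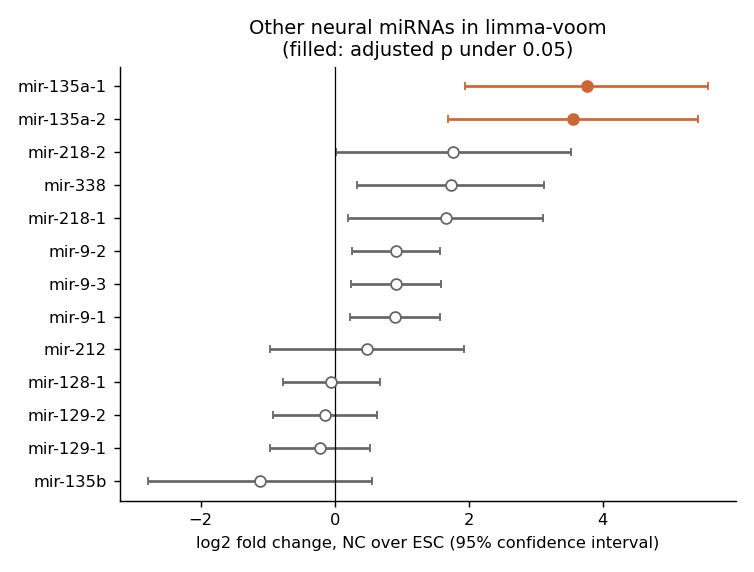
Log2 fold change of NC over ESC (horizontal axis) with its 95% confidence interval in limma-voom for the 13 other neural miRNAs tested (vertical axis). Filled points, mir-135a-1 at 3.76 and mir-135a-2 at 3.56, passed an adjusted p of 0.05, and open points did not.

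The miRNAs most like each gene across libraries were named by the Pearson correlation of log2 (normalised count + 1) over the 6 libraries, among the same 302 miRNAs. The 6 points share their libraries and fall into the 2 groups, so r is a description only. For mir-138-1 these were mir-216b (r = 0.995), mir-196b (0.992) and mir-216a (0.991), while its own copy mir-138-2 was at 0.999. mir-196b held 25.9, 29.9 and 43.8 normalised counts in ESC libraries A, B and C and 98.8, 102.4 and 128.2 in NC. Like mir-138-1, it was highest in library C of each group.

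For mir-219a-2 the most alike were mir-135a-1 (r = 0.986), mir-135a-2 (0.984) and mir-615 (0.974). The miR-135a copies shared its low value in NC library C, and mir-615, at 95.4, 107.5 and 106.0 in the NC libraries, did not. For mir-219a-1 they were mir-106a (0.965), mir-218-2 (0.965) and mir-190b (0.963), whose values were lowest in library C of each group. Between mir-219a-1 and mir-219a-2, r was 0.675. The miRNAs named are the 3 highest of 302, so an r above that between the miR-219a copies follows largely from the selection. In ESC the r between the copies rests on 36 reads of mir-219a-1 and 2 of mir-219a-2.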

How the data were processed

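The 3 ESC and 3 NC libraries of small RNA were grouped by their labels. The deposited table holds signal columns that the authors made by dividing each library's reads by its size factor and averaging per group. The authors' processing notes name DESeq and mm10. Adapter removal, aligner, miRNA annotation and counting rule are not given in the sources used here. The table also holds a mean over both groups and the authors' fold changes and p-values, none of which was used. Reads were recovered by enumeration, since a mean of 3 normalised counts printed to 10 decimals fits few sets of whole numbers. The resolved miRNAs held 9.07% of the signal in ESC and 8.70% in NC. The recovery was tested on simulated data.

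The study's count test needs counts per library, so voom weights and limma 3.58.1 in R 4.3.3 were applied to the recovered reads and size factors of 310 miRNAs, those that reached 10 reads in 3 libraries. p-values from this fit measure the spread between cultures of 1 line. Intervals and floors (3 reads) cover counting error only. The pseudocount was 1. Alternatives changed the pseudocount, the scaling, the filter, the fit and the libraries used. The genes, lists and rules for naming miRNAs were chosen with earlier results of these data known. Named were the 4 genes, mir-219b, mir-219c, listed neural miRNAs that passed, and the 3 most correlated miRNAs for each of mir-138-1, mir-219a-1 and mir-219a-2. Other listed neural miRNAs and sets that share a mature strand were named after their values were seen. Sequences were from RefSeq on GRCm38.p6 and positions of neighbours from GENCODE M21. Other values were computed with scipy 1.17.1 and pandas 2.3.3.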

Additional observations from a re-analysis of the deposited data

How the results depend on the processing

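All 4 genes kept a higher NC than ESC mean under each of 13 alternatives. With both groups scaled to equal totals, which moves log2 ratios by -0.48, the log2 ratio was 2.01 for mir-138-1 and for mir-138-2, and with equal totals without mir-10a, the largest NC value, it was 2.93 for both. For mir-219a-2 it was 8.58 without a pseudocount and 5.58 with means below 3 reads per library set to that floor. Leaving out 1 library gave 2.37 to 2.66 for mir-138-1, 2.37 to 2.62 for mir-138-2, 0.47 to 1.70 for mir-219a-1 and 6.76 to 7.54 for mir-219a-2. The log2 ratio of mir-138-1 to mir-138-2 in ESC turned from 0.032 to -0.0082 with the 2 deeper libraries of each group, and ranged from -0.0082 to 0.078 with 1 library left out. That of mir-219a-2 to mir-219a-1 in ESC was -4.25 without a pseudocount. The mir-219a-2 share of the summed difference stayed between 93.3% and 97.2%. limma-voom called 49 of 310 miRNAs tested (15.8%), and the 4 genes were among those tested. It called 128 of 310 (41.3%) with the library set as covariate and 159 of 318 (50%) with the 2 deeper libraries. With 1 library left out it called 22 to 54 (6.9% to 16.8% of those tested). The fewest were without ESC library A or NC library B (22 each), then ESC library B (24) and NC library A (27). For the other neural miRNAs the count went from 2 of 13 to 9 of 13 with the covariate and 9 of 14 with the 2 deeper libraries. These rises came with the larger shares of all miRNAs called. With 1 library left out the neural count was 0 to 3 of 13 or 14 tested. It was 0 when ESC library A, ESC library B or NC library B was left out, and 1 when it was NC library A. The fits with a library left out assume that the smaller group varies like the larger. The causes were not tested. No paired analysis was possible because reads recovered from group means cannot be tied to the numbered replicates. Depth limits mir-219a-1 and the ESC values of mir-219a-2, which rest on 36 and 2 reads.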
